A study of Mus musculus with 6 samples.

Results

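The genes described here are 10 members of the chemokine system, 8 ligands (*Cxcl12*, *Cxcl1*, *Cxcl14*, *Cxcl16*, *Ccl2*, *Ccl7*, *Ccl11* and *Cx3cl1*) and 2 atypical receptors (*Ackr1* and *Ackr3*). They were taken by gene symbol from a matrix of 24421 rows, and all 10 were found. Mice of the 129S6/SvEv strain were killed at 8 weeks of age, the root and ascending part of the aorta were digested together, and living GFP+ cells were sorted for RNA sequencing. All mice carried the conditional *CAG-Sun1/sfGFP* tracer, a nuclear envelope GFP that is switched on by Cre. In 3 libraries the Cre was *Mef2c*SHF, which marks the secondary heart field (SHF) lineage, and in the other 3 it was *Wnt1-Cre2*, which marks the cardiac neural crest (CNC) lineage. All libraries are labelled WT and no treatment is named. The comparison asks how aortic cells of the 2 lineages differ. Each Cre marks whatever cell types descend from its field, so the sorted cells are a lineage and not one cell type. The study calls the replicates of each lineage biological, and the number of mice behind each library is not given in the sources used here.

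Chemokines are small secreted or membrane-bound proteins that draw leukocytes along a gradient by binding G protein-coupled receptors. Atypical chemokine receptors bind the same ligands without G protein signalling, and instead remove, store or transport them. In the vessel wall, smooth muscle cells and fibroblasts are known sources of *Cxcl12*, and *Cxcl1* and *Ccl2* are early products of the NF-kappaB response in many stromal cells.

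Levels are given as TPM, the share of a library's transcripts that belong to a gene, corrected for length and scaled to 1000000 per library. Read depth cannot be recovered from this unit and is unknown here, and a value of 0 means that the gene was listed at 0. The libraries had from 9255 to 11858 genes above 0 TPM. Transcripts of 8 fibroblast genes summed to between 21636 and 22757 TPM in SHF and between 29731 and 37046 TPM in CNC libraries. Those of 8 smooth muscle genes summed to between 859 and 2047 TPM in SHF and between 879 and 1262 TPM in CNC libraries, in lineages that the study describes as sources of vascular smooth muscle. The fibroblast sums did not overlap between lineages, and their part in the differences between lineages was not tested. The leukocyte gene *Ptprc* was listed at 0 in all 6 libraries. *Xist* was above 5 TPM in 2 SHF libraries and listed at 0 in the other 4 libraries, and the part of sex in the differences was not tested. In bulk samples, fewer cells of a type and less RNA per cell cannot be told apart.

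The SHF minus CNC difference in log2(TPM + 1) was tested with limma for 10185 genes that passed a filter on low values, all 10 chemokine genes among them, with p-values adjusted over all of these (Benjamini-Hochberg). By this test 0 of the 10 chemokine genes had an adjusted p under 0.05, against 0% of all genes tested. At an unadjusted p under 0.05 there was 1 of 10, *Ackr1*, against 5.86% of all genes in either direction and 3.17% higher in CNC. The differences were above 0 for 7 genes and below 0 for 3, with a median of 0.51, beside a median of 0.02 over all genes tested. The 3 SHF libraries and the 3 CNC libraries did not overlap for 2 of the 10 genes. These were *Cx3cl1*, higher in SHF as were 6.11% of all genes, and *Ackr1*, higher in CNC as were 5.68%. An exact two-sided permutation test of 3 libraries against 3 cannot give a p below 0.1 for any single gene.

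**Figure D1:**
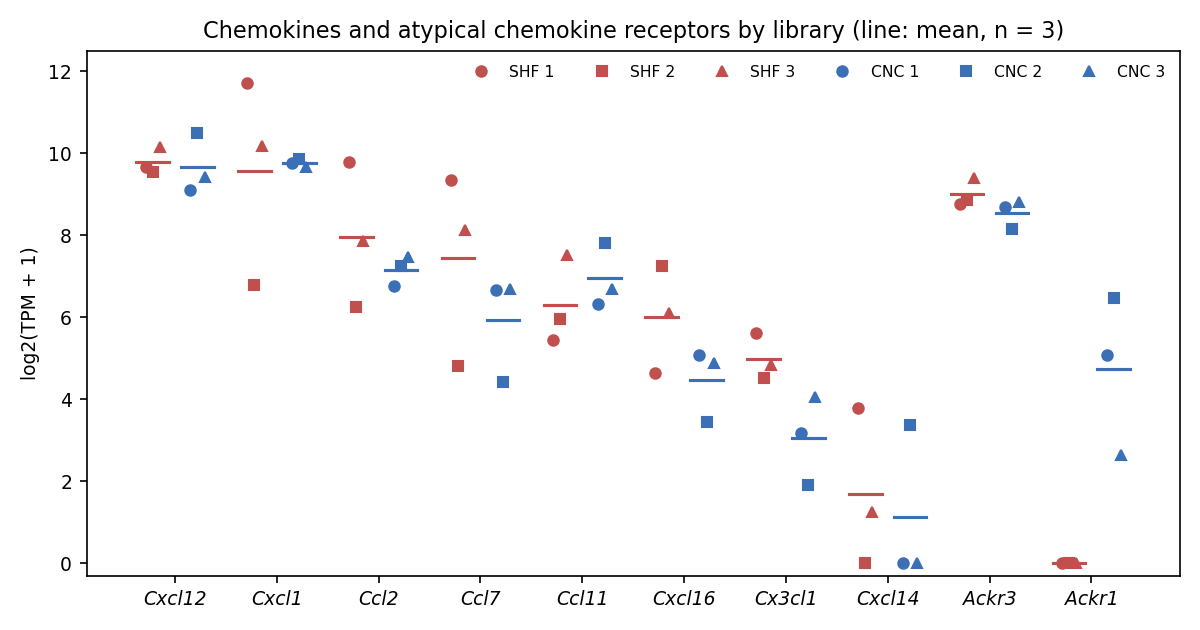
Level of each gene on the log2(TPM + 1) scale, with 1 point per library (red, SHF; blue, CNC; circle, square and triangle for replicates 1, 2 and 3) and a line at each lineage mean (n = 3). *Cxcl12*, *Cxcl1* and *Ackr3* were the highest on average, *Cxcl1*, *Ccl2* and *Ccl7* were spread widely among SHF libraries, and *Ackr1* was listed at 0 in all SHF libraries.

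*Cxcl12*, on chromosome 6 of GRCm38 from 117168535 to 117181367, encodes the constitutively made stromal ligand of the receptors CXCR4 and ACKR3. It measured 808, 740.4 and 1146 TPM across SHF replicates 1, 2 and 3, against 553, 1439 and 681 TPM across CNC replicates 1, 2 and 3. The lineages overlapped, and both the highest and the lowest of the 6 libraries were CNC libraries. The mean was 898 ± 217 TPM (SD, n = 3) in SHF and 891 ± 479 TPM (SD, n = 3) in CNC. The difference was 0.11 on the log2 scale (SE 0.36, 95% interval from -0.68 to 0.91, adjusted p = 0.968 by limma). It changed sign when SHF replicate 3 (-0.08), CNC replicate 1 (-0.17) or CNC replicate 3 (-0.02) was left out. The highest library was 2.60 times the lowest.

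*Ackr3*, on chromosome 1 from 90203980 to 90216751, encodes the atypical receptor that takes up CXCL12. It measured 434, 468 and 675 TPM across SHF replicates 1, 2 and 3, against 410.4, 284 and 451 TPM across CNC replicates. The lineages overlapped in that SHF replicate 1 lay between CNC replicates 1 and 3. The difference was 0.46 (SE 0.31, 95% interval from -0.23 to 1.15, adjusted p = 0.883 by limma), the narrowest interval of the 10 genes. It was 0.27 when SHF replicate 3 was left out and 0.26 when CNC replicate 2 was. The lowest library for *Ackr3*, CNC replicate 2, was the highest for *Cxcl12*, and the ratio of *Cxcl12* to *Ackr3* was 5.06 there against 1.35 to 1.86 in the other 5 libraries. *Cxcr4*, the signalling receptor of the same ligand, was at most 3.62 TPM in any library with 0 listed for SHF replicate 2 and CNC replicate 2. The peptidase gene *Dpp4*, whose product inactivates CXCL12, was at 5.21, 25.7 and 21.9 TPM across SHF replicates and 63.7, 45.3 and 16.2 TPM across CNC replicates (difference -1.25, adjusted p = 0.888 by limma).

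By the root mean square difference between profiles centred on each gene's own mean, the tested genes most like *Cxcl12* over the 6 libraries were *Mfap1b*, *Cp* and *Atp5f1*, at 0.13, 0.13 and 0.16 on the log2 scale, against a median of 1.21 over all genes. *Cp*, the ferroxidase ceruloplasmin, was at 143, 148 and 194 TPM across SHF replicates and 97.3, 211 and 119.8 TPM across CNC replicates. Its order of libraries was nearly that of *Cxcl12*, with CNC replicate 2 highest and CNC replicate 1 lowest.

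*Cxcl1*, *Ccl2* and *Ccl7* encode the inflammatory ligands of the series, CXCL1 for neutrophils and CCL2 and CCL7 for monocytes. All 3 were highest in SHF replicate 1. *Cxcl1* (chromosome 5, 90891241 to 90893115) measured 3359, 109.6 and 1152 TPM across SHF replicates 1, 2 and 3, against 861, 928 and 812 TPM across CNC replicates. The 3 CNC libraries lay within 1.14 times of each other, while the highest SHF library was 30.7 times the lowest. The mean was 1540.0 ± 1659 TPM (SD, n = 3) in SHF and 867 ± 58.0 TPM (SD, n = 3) in CNC, and the difference on the log2 scale was -0.2 (SE 0.91, 95% interval from -2.2 to 1.8, adjusted p = 0.980 by limma). The sign depended on which SHF libraries entered, since it was -1.28 without SHF replicate 1 and 1.18 without SHF replicate 2.

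*Ccl2* (chromosome 11, 82035571 to 82037453) measured 885, 74.9 and 232 TPM across SHF replicates 1, 2 and 3, against 108, 150.4 and 177 TPM across CNC replicates. SHF replicate 1 was the highest library and SHF replicate 2 the lowest, with the CNC libraries between. The difference was 0.8 (SE 0.71, 95% interval from -0.76 to 2.36, adjusted p = 0.896 by limma), and it was -0.11 without SHF replicate 1 and 1.66 without SHF replicate 2. *Ccl7*, which neighbours *Ccl2* on chromosome 11 from 82045712 to 82047525, measured 655, 27.0 and 281 TPM across SHF replicates, against 100.2, 20.6 and 103 TPM across CNC replicates. SHF replicates 1 and 3 were above all CNC libraries, and SHF replicate 2 was below 2 of the 3. The difference was 1.5 (SE 1.02, 95% interval from -0.73 to 3.74, adjusted p = 0.880 by limma), with 0.54 when SHF replicate 1 was left out and 2.82 when SHF replicate 2 was. The ratio of *Ccl7* to *Ccl2* ran from 0.137 in CNC replicate 2 to 1.21 in SHF replicate 3, so the neighbours did not keep 1 ratio.

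The spread among replicates of a lineage was 1.78 for *Cxcl1*, 1.28 for *Ccl2* and 1.9 for *Ccl7* (residual SD on the log2 scale), against 0.56 for *Cxcl12* and 0.35 for *Ackr3*. Over the 1522 tested genes that averaged 100 TPM or more, the median was 0.47 and 80% of genes lay from 0.23 to 0.93. *Cxcl1* and *Ccl2* were both highest in SHF replicate 1 and lowest in SHF replicate 2, an order that was noticed after the values were seen and that 3.07% of all tested genes had. For *Ccl7* the lowest library was CNC replicate 2, followed by SHF replicate 2. The same order held for 5 of the 17 tested genes of the NF-kappaB list, *Nfkbia*, *Zfp36*, *Il6*, *Rel* and *Relb*. It held for 4 of the 12 genes of the dissociation response list, *Fos*, *Fosb*, *Atf3* and *Ier3*, for the transducer *Gnai3*, and for 3 of the 8 smooth muscle genes, *Myh11*, *Acta2* and *Cnn1*. The smooth muscle genes summed to 2047, 859 and 1274 TPM in SHF replicates 1, 2 and 3, and the part of smooth muscle content in the levels of *Cxcl1* and *Ccl2* was not tested.

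*Il6*, an inflammatory cytokine, measured 194, 11.4 and 126 TPM across SHF replicates 1, 2 and 3, against 43.5, 64.0 and 53.2 TPM across CNC replicates. *Nfkbia*, which encodes the inhibitor that NF-kappaB itself induces, measured 1116, 201 and 564 TPM across SHF replicates, against 391, 486 and 347 TPM across CNC replicates. In both genes, as in *Cxcl1*, SHF libraries held the extremes and the CNC libraries lay close together. Other genes of the NF-kappaB list had another order. *Nfkb1*, *Nfkb2* and *Ikbkb* were highest in SHF replicate 2, where *Cxcl1* was lowest, at 59.7, 51.5 and 45.25 TPM. The dissociation response list summed to 12492.5, 6077 and 10873 TPM in SHF replicates 1, 2 and 3 and to between 6960 and 8496 TPM in CNC libraries. Tissue was digested at 37°C before sorting, and the part of that step in the levels of *Cxcl1*, *Ccl2* and *Ccl7* was not tested. Among all tested genes the profiles most like that of *Ccl2* were *Csrnp1*, *Ier3* and *Ccdc15*, with root mean square differences of 0.32, 0.38 and 0.38 against a median of 1.51. *Ier3*, an immediate early gene, measured 1421, 201 and 530.4 TPM across SHF replicates, against 419, 435 and 467 TPM across CNC replicates, while *Ccdc15* was at or under 7 TPM in every library.

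**Figure D2:**
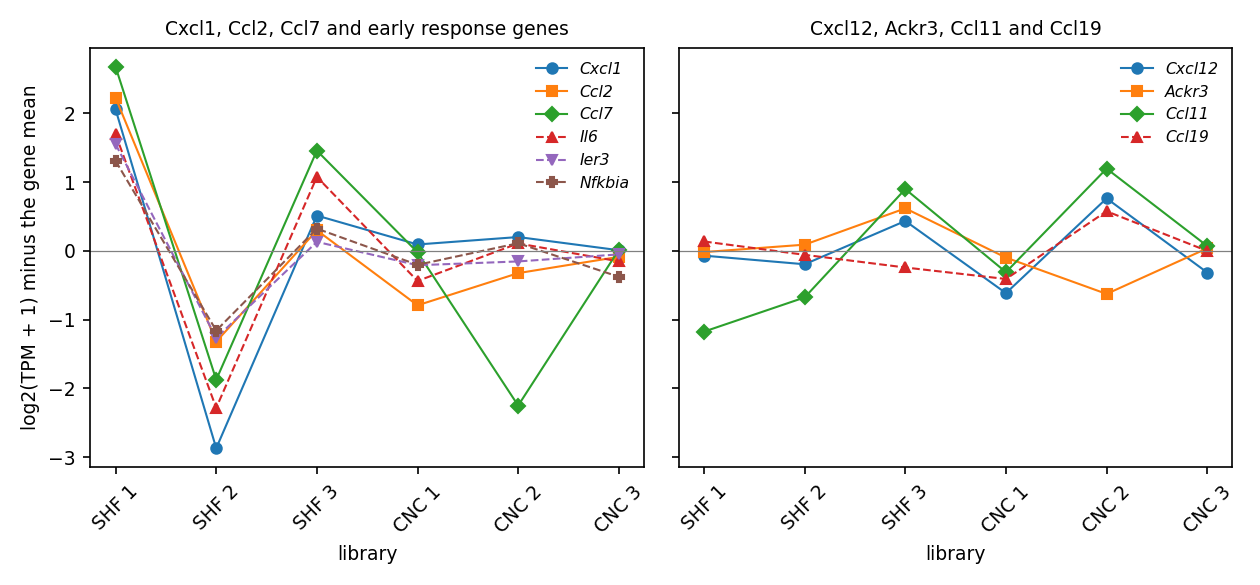
Each gene's log2(TPM + 1) minus its own mean over the 6 libraries, by library, for *Cxcl1*, *Ccl2*, *Ccl7* and early response genes (left) and for *Cxcl12*, *Ackr3*, *Ccl11* and *Ccl19* (right). Solid lines are the chemokine genes described here and dashed lines are other genes. Lines join libraries for reading only. On the left SHF replicate 1 is highest for all 6 genes, and on the right no library is highest for all 4.

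Promoter windows of 300 bases, from 250 before to 50 after the start, were at hand from RefSeq on GRCm38.p6 for 6 of the 10 genes. None was at hand for *Cxcl16*, *Ccl2*, *Ccl7* and *Ccl11*, so these were not searched for motifs. The upstream part is printed for *Cxcl1*, which had a 30.7-fold range between libraries, with GGGAATTTCC in capitals, its first plus-strand match to the NF-kappaB consensus, and beside it the upstream part for *Cxcl12*, which had a 2.60-fold range, with the GC box GGGCGG (or its reverse complement CCGCCC) in capitals. Both run 5′ to 3′ on the plus strand. The *Cxcl1* stretch is chr5:90890995-90891240 and the *Cxcl12* stretch is chr6:117168285-117168534. A shorter window, chr5:90903792-90903821 on the plus strand, shows the same NF-kappaB sequence before the neighbouring gene *Cxcl2*.
Cxcl1: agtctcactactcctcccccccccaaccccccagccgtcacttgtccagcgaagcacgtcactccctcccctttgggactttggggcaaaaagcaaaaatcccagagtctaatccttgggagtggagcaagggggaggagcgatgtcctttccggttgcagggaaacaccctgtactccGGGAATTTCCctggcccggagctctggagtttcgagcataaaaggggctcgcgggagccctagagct
Cxcl12: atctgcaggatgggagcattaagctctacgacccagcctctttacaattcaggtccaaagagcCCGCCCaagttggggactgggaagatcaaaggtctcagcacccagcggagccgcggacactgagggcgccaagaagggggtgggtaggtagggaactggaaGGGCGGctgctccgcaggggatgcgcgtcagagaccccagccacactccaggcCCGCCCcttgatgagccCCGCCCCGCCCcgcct
Cxcl2: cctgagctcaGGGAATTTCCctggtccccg

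On either strand, GGGAATTTCC was in 29 of 32851 RefSeq promoter windows (0.0883%). The letters were taken from the *Cxcl1* window, so its own match is by construction. Among the 62 genes of the chemokine and NF-kappaB lists with a window it was in 5, *Cxcl1*, *Cxcl2*, *Cxcl3*, *Nfkbia* and *Ccr3*. In *Cxcl1* it lay from 71 to 62 bases before the start, and it overlaps the broader NF-kappaB consensus, which was in 4.51% of all windows. Genes with this sequence did not share a level. *Cxcl1* and *Nfkbia* were among the abundant transcripts, *Cxcl2* was between 0 and 51.8 TPM, and *Cxcl3* and *Ccr3* were listed at 0 in all 6 libraries. GGGCGG was in 35.7% of all windows, and in those of *Cxcl12*, *Ackr3*, *Cx3cl1* and *Cxcl14* among the genes described. Genes with GGGCGG did not share a spread, since the highest library was 2.60 times the lowest for *Cxcl12* and 17.3 times for *Cx3cl1*. The part of either sequence in the spread between libraries was not tested. A match describes the letters only.

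*Ccl11*, on chromosome 11 from 82057823 to 82062955, encodes eotaxin, a ligand for eosinophils made by fibroblasts and smooth muscle. It measured 42.8, 60.9 and 183 TPM across SHF replicates 1, 2 and 3, against 78.8, 226 and 103 TPM across CNC replicates. Although it lies beside *Ccl2* and *Ccl7*, its lowest library was SHF replicate 1, where both neighbours were highest. The lineages overlapped, with a difference of -0.64 (SE 0.61, 95% interval from -1.99 to 0.72, adjusted p = 0.896 by limma). The difference was -0.2 without CNC replicate 2 and -1.24 without SHF replicate 3.

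*Cxcl14*, on chromosome 13 from 56288643 to 56296551, encodes a ligand made constitutively in skin and other epithelia. It measured 12.8 and 1.39 TPM in SHF replicates 1 and 3 and 9.41 TPM in CNC replicate 2, and was listed at 0 in the other 3 libraries. It had the lowest mean of the 10 genes, and it entered the test with the fewest libraries that the filter allows. The difference was 0.56 (SE 1.3, 95% interval from -2.3 to 3.41, adjusted p = 0.954 by limma), and it was -0.5 without SHF replicate 1 and -0.01 without CNC replicate 1 or 3.

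*Cxcl16* and *Cx3cl1* encode the ligands that are made as membrane proteins and released by the sheddases ADAM10 and ADAM17. *Cx3cl1*, fractalkine, is on chromosome 8 from 94772009 to 94782427 and is best known from endothelium and neurons. It measured 48.3, 21.9 and 27.4 TPM across SHF replicates 1, 2 and 3, against 8.06, 2.79 and 15.8 TPM across CNC replicates. Every SHF library was above every CNC library. The mean was 32.5 ± 13.9 TPM (SD, n = 3) in SHF and 8.87 ± 6.52 TPM (SD, n = 3) in CNC. The difference of 1.93 (SE 1.02, 95% interval from -0.31 to 4.17) had an adjusted p of 0.874 by limma and the smallest p that the exact permutation test can give, 0.1. It was between 1.37 and 2.44 when any 1 library was left out.

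*Cxcl16* (chromosome 11, 70453983 to 70459984) measured 23.8, 152 and 67.4 TPM across SHF replicates 1, 2 and 3, against 32.6, 9.92 and 28.8 TPM across CNC replicates. SHF replicates 2 and 3 were above all CNC libraries, while SHF replicate 1, the highest library for *Cx3cl1*, was below 2 of them. The difference was 1.52 (SE 0.82, 95% interval from -0.28 to 3.33, adjusted p = 0.874 by limma), with 2.21 when SHF replicate 1 was left out and 0.89 when SHF replicate 2 was. Exons of *Cxcl16* overlap those of *Zmynd15* on the opposite strand, whose reads cannot be told apart without strand and which was at most 1.8 TPM in any library.

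The sheddase gene *Adam10* measured 43.5, 142 and 54.2 TPM across SHF replicates, against 10.2, 41.9 and 20.5 TPM across CNC replicates. The lineages did not overlap, and the difference was 1.7 (SE 0.75, adjusted p = 0.825 by limma). *Adam17* measured 34.0, 41.3 and 30.4 TPM across SHF replicates, against 17.1, 7.63 and 33.3 TPM across CNC replicates, which overlapped. The other genes of the protease list were led by *Mmp2*, which also cleaves CXCL12 and CCL7 and was at 959, 1039 and 1379 TPM in SHF and 1698, 1441 and 1482 TPM in CNC libraries (difference -0.47, adjusted p = 0.874 by limma). Of the 6 tested genes of this list 0 passed the adjusted threshold, 1 had an unadjusted p under 0.05 (5.86% of all genes), and the lineages did not overlap for 2, *Adam10*, higher in SHF (6.11% of all genes), and *Mmp2*, higher in CNC (5.68%).

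The summed level of endothelial transcripts was higher in SHF replicates 2 and 3 than in any CNC library. The 10 genes of the endothelial list summed to between 302 and 858 TPM in SHF libraries and between 241 and 336 TPM in CNC libraries. Of the 10 genes, 5 were listed at 0 in all CNC libraries, *Cdh5*, *Tie1*, *Cldn5*, *Vwf* and *Emcn*, and none in all SHF libraries. Within SHF the order differed from that of *Cx3cl1*, since the endothelial sum was 302 TPM in replicate 1, where *Cx3cl1* was highest, and 858 TPM in replicate 2, where it was lowest. The part of endothelial cells in the level of *Cx3cl1* was not tested.

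**Figure D3:**
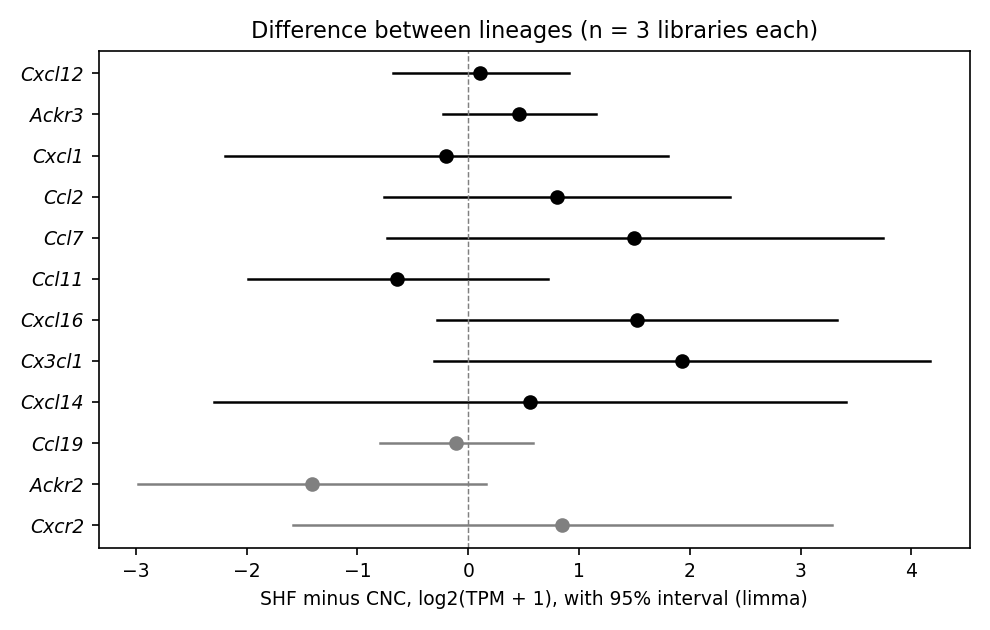
Difference between lineages in log2(TPM + 1), SHF minus CNC, with its 95% interval from limma (n = 3 libraries each), for 9 of the 10 chemokine genes (black) and for *Ccl19*, *Ackr2* and *Cxcr2* (grey). *Ackr1* is not drawn because SHF libraries were listed at 0, and every interval drawn includes 0.

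*Ackr1*, on chromosome 1 from 173331886 to 173333750 on the minus strand, encodes the Duffy antigen receptor, which binds many inflammatory CC and CXC ligands, CXCL1, CCL2 and CCL7 among them, and is known from red cells and from the endothelium of venules. It was listed at 0 in SHF replicates 1, 2 and 3 and measured 33.1, 87.2 and 5.25 TPM in CNC replicates 1, 2 and 3. All CNC libraries were above all SHF libraries, with a 16.6-fold range among them. The study filtered the matrix for transcripts exclusive to a lineage at a threshold of 5 TPM. Read here as above 5 TPM in every library of a lineage and 0 in every library of the other, this filter took 1 of the 10 genes, *Ackr1*, which it also took when the mean of the expressing lineage had to pass 5 TPM. It took 0.0614% of all rows as CNC-exclusive and 0.0778% as SHF-exclusive. CNC replicate 3 was just above the threshold of 5 TPM, and with a threshold of 10 TPM the filter took 0 of the 10 genes. *Ackr1* had an unadjusted p of 0.00408 and an adjusted p of 0.561 by limma. It entered that test through its CNC libraries alone, and the study ran its filter for exclusive transcripts on these same libraries, so these values are a description. No fold change is given against a lineage listed at 0.

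Exons of *Ackr1* overlap exons of *Cadm3*, a cell adhesion gene on the same strand from 173333258 to 173367695, so reads there could belong to either. *Cadm3* measured 10.8, 0 and 17.6 TPM across SHF replicates 1, 2 and 3 and 11.8, 29.6 and 9.79 TPM across CNC replicates. *Cadm3* was therefore present in 2 libraries in which *Ackr1* was listed at 0. In the *Ackr1* window from RefSeq, the GATA-family sequence AGATAAG lay on the reverse strand from 24 to 30 bases after the start, in a window of chr1:173333462-173333491 on the minus strand that is also part of the locus shared with *Cadm3*. It is shown because *Ackr1* was the only one of the 10 genes listed at 0 throughout a lineage, with the reverse complement CTTATCT in capitals, and the motif was in 3.04% of all windows.
Ackr1: tagccctgggcaCTTATCTtggagccacag

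Among the genes most like *Ackr1* over the 6 libraries were *Aph1b* and *Fpgt*, with root mean square differences of 0.56 and 0.60 on the log2 scale against a median of 2.82 over all genes. *Aph1b*, which encodes a subunit of gamma-secretase, was at most 0.51 TPM in SHF libraries and measured 18.9, 45.6 and 3.84 TPM in CNC replicates 1, 2 and 3. *Fpgt*, a fucose metabolism gene, was listed at 0 in all SHF libraries and measured 11.5, 44.98 and 5.86 TPM in CNC replicates 1, 2 and 3. As for *Ackr1*, CNC replicate 2 was highest and CNC replicate 3 lowest of the 3 for both genes.

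Endothelial markers were mixed in the CNC libraries, where *Ackr1* was detected. *Cdh5*, *Tie1*, *Cldn5*, *Vwf* and *Emcn* were listed at 0 in all 3 CNC libraries. The other 5 genes of the list were above 0 in at least 1 of them, and *Eng*, which fibroblasts and other stromal cells also make, was between 180.5 and 275 TPM, *Pecam1* between 9.72 and 37.9 TPM and *Tek* between 1.11 and 36.7 TPM. Of the 6 erythroid genes, *Alas2* was at 0.6 TPM in CNC replicate 1 and *Hba-a1* was at 48.7 TPM in CNC replicate 2, and all 6 genes were listed at 0 in CNC replicate 3. The highest erythroid sum, 380.0 TPM, was in SHF replicate 1, where *Ackr1* was listed at 0. The part of endothelial or red cells in the level of *Ackr1* was not tested.

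*Ackr2*, the atypical receptor that degrades inflammatory CC ligands, was not one of the 10 genes. Like *Ackr1* it was higher in CNC, while the difference of *Ackr3* was 0.46. *Ackr2* measured 19.1, 10.8 and 32.3 TPM across SHF replicates 1, 2 and 3, against 41.3, 48.4 and 70.0 TPM across CNC replicates. Every CNC library was above every SHF library, as for 5.68% of all genes tested. The difference was -1.41 (SE 0.71, 95% interval from -2.98 to 0.16, adjusted p = 0.874 by limma). *Ackr4* was at most 0.3 TPM. *Ccrl2* measured 35.8 and 17.3 TPM in SHF replicates 1 and 3 and was listed at 0 in the other 4 libraries.

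**Figure D4:**
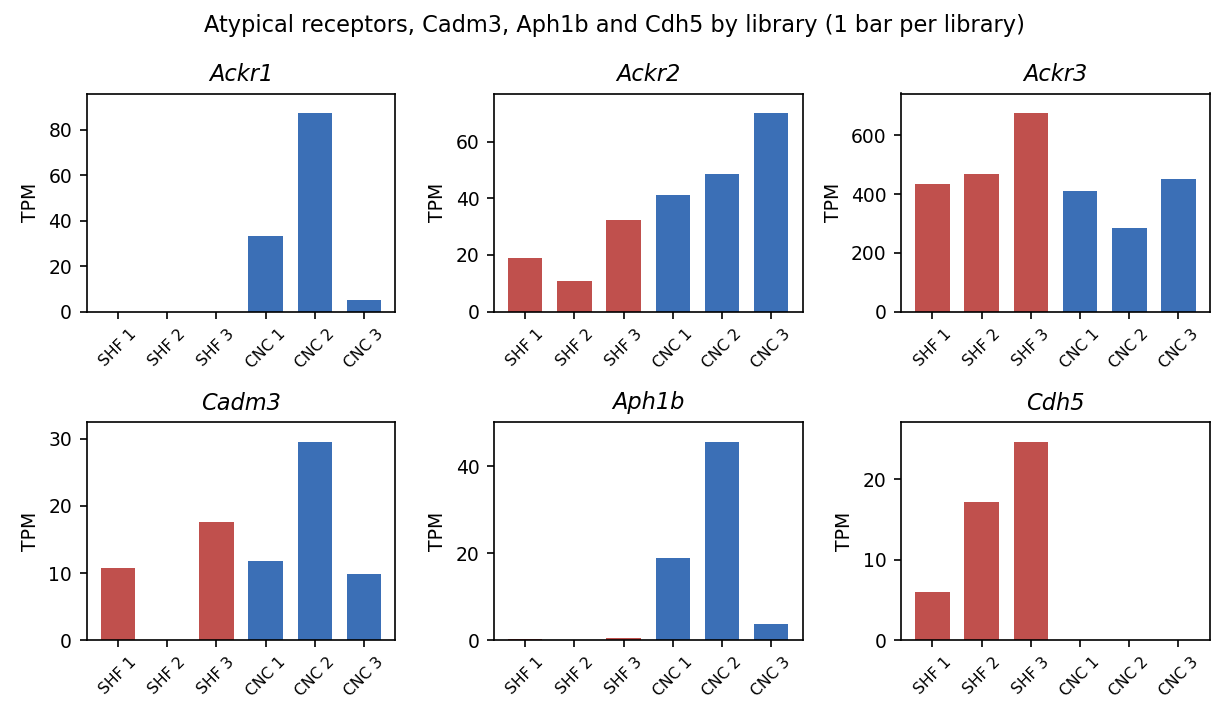
TPM in each library (1 bar per library; red, SHF; blue, CNC) for the atypical receptors *Ackr1*, *Ackr2* and *Ackr3*, for *Cadm3*, whose exons overlap those of *Ackr1*, for *Aph1b* and for the endothelial gene *Cdh5*, each on its own axis from 0. *Ackr1* was listed at 0 and *Aph1b* was at most 0.51 TPM in all SHF libraries, *Cdh5* was listed at 0 in all CNC libraries, and *Ackr3* was above 284 TPM in every library.

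Many chemokine ligand genes were listed at 0, as were many rows of the whole matrix. Of 41 ligand genes, 18 were listed at 0 in all 6 libraries and 9 were above 0 in all 6, 7 of them among the 8 ligands described. The other 2 were *Ccl19* and *Ccl27a*. Of all 24421 rows, 6378 were above 0 in all 6 libraries, and by mean level the rows at 0 throughout began at rank 14180. *Ccl19*, the ligand of CCR7 made by stromal cells of lymphoid tissue, measured 567, 495 and 436 TPM across SHF replicates, against 388, 769 and 515 TPM across CNC replicates. This placed *Ccl19* above *Ackr3* in mean level, and its lineages overlapped (difference -0.11, SE 0.31, 95% interval from -0.8 to 0.58, adjusted p = 0.962 by limma). *Ccl27a* was between 3.46 and 72.3 TPM, and its reads may be shared with the near copy *Ccl27b*.

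Some ligands known from myeloid cells and platelets appeared in CNC replicate 2. Others, *Ppbp*, *Ccl4*, *Ccl17*, *Ccl22* and *Ccl24* among them, were listed at 0 in all 6 libraries. *Ccl6* measured 53.4 TPM there, 6.23 TPM in SHF replicate 1 and 0 in the other 4 libraries. *Pf4* was at 23.2 TPM, *Cxcl5* at 17.7 TPM and *Ccl3* at 13.9 TPM in CNC replicate 2, and all 3 were listed at 0 in the other 5 libraries. Of the leukocyte genes, *Lyz2* at 58.8 TPM, *Cd14* at 48.3 TPM, *Csf1r* at 25.8 TPM and *Tyrobp* at 32.3 TPM were highest in this library. *Cd68* was listed at 0 there and was highest in SHF replicate 3 at 26.9 TPM, *Cd74* was highest in SHF replicate 2 at 387 TPM, and 5 of the 12 leukocyte genes, *Ptprc*, *Adgre1* and *Itgam* among them, were listed at 0 in all 6 libraries. The 12 genes summed to between 178 and 387 TPM in SHF and between 24.7 and 433 TPM in CNC libraries. *Cxcl12*, *Ccl11* and *Ackr1* had their highest values in the same library, and the part of myeloid cells in those values was not tested. Without this library the log2 difference was 0.52 for *Cxcl12* and -0.2 for *Ccl11*. Leaving out a library only loosens the filter for exclusive transcripts, so it could not lose *Ackr1*.

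Of 19 signalling chemokine receptor genes, 15 were listed at 0 in all 6 libraries, as were all rows from rank 14180 of 24421 by mean level. Among the 15 were *Ccr2*, *Cx3cr1* and *Cxcr6*, the receptors of CCL2 and CCL7, of CX3CL1 and of CXCL16. *Cxcr2*, the receptor of CXCL1, was the only one of the 19 tested. It measured 10.7, 13.3 and 16.0 TPM across SHF replicates 1, 2 and 3, against 8.42, 7.56 and 5.05 TPM across CNC replicates. Every SHF library was above every CNC library, as for 6.11% of all genes tested (difference 0.85, SE 1.1, 95% interval from -1.58 to 3.28, adjusted p = 0.918 by limma).

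The genes around the pathway gave 0 adjusted calls by limma in each list. Of 13 tested genes for heparan sulfate proteoglycans, which hold chemokines at the cell surface, and for the enzymes that build heparan sulfate, 2 had an unadjusted p under 0.05 and were higher in SHF, where 2.69% of all genes were. These were *Sdc3*, at 109.9, 107 and 50.7 TPM in SHF and 32.0, 11.0 and 1.58 TPM in CNC libraries (difference 3.08, adjusted p = 0.629 by limma), and *Sdc4*, at 447, 588 and 532 TPM in SHF and 342, 357 and 289 TPM in CNC libraries (difference 0.66, adjusted p = 0.820 by limma). *Gpc6* was lower in every SHF library than in any CNC library, as were 5.68% of all genes tested. It was at 31.7, 38.4 and 38.4 TPM in SHF and 82.2, 68.3 and 71.1 TPM in CNC libraries (difference -1.01, adjusted p = 0.874 by limma). The median difference over the list was -0.15.

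Of 17 tested genes of the NF-kappaB list, 14 had differences above 0, with a median of 0.83 beside 0.02 over all genes, and 4 had lineages that did not overlap, all higher in SHF, as were 6.11% of all genes. These were *Nfkb1*, *Icam1*, *Vcam1* and *Sod2*. *Vcam1*, an adhesion molecule for leukocytes, was at 389, 165 and 51.4 TPM in SHF and at 47.6, 44.4 and 46.2 TPM in CNC libraries (difference 1.67, SE 0.66, adjusted p = 0.796 by limma), and was the 1 gene of the list with an unadjusted p under 0.05, where 2.69% of all genes were higher in SHF. Its order among SHF libraries differed from that of *Cxcl1*, with replicate 3 lowest. Among 9 tested signal transducers 0 had an unadjusted p under 0.05, and *Gnai2* and *Gnai3*, which couple chemokine receptors to adenylyl cyclase, were between 43.8 and 196 TPM in every library.

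The 8 ligands together summed to 5835, 1187 and 3091 TPM in SHF replicates 1, 2 and 3 and to 1742, 2786 and 1921 TPM across CNC replicates. *Cxcl1* made up from 9.23% to 57.6% of that sum and *Cxcl12* from 13.8% to 62.4%. In SHF replicate 1 *Cxcl1* was at 4.16 times the level of *Cxcl12*, and in SHF replicate 2 at 0.148 times, so that either ligand could lead the list within a single lineage.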

How the data were processed

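RNA of sorted GFP+ cells was amplified by the SmartSeq2 protocol, which does not mark strand. Per the submitters' processing notes RSEM 1.2.25, Bowtie2 and the mm10 build were used, and the deposited values are TPM for 24421 rows. The annotation they used is not given in the sources used here. Columns were matched to the 3 SHF and 3 CNC libraries through the library codes.

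A gene was tested if 3 or more libraries reached 1 TPM (10185 genes). The test was limma 3.58.1 under R 4.3.3, with a mean-variance trend in eBayes, on log2(TPM + 1), a scale that understates changes of low genes. Adjustment was by Benjamini-Hochberg over all 10185, with a threshold of 0.05. The p-values measure the spread between these 6 libraries, which the study calls biological replicates. All 10 chemokine genes passed the filter on low values. The fit was also run on simulated data, and the outcome of that run is not given here. Replicate numbers are shared between lineages, whose mice carried different Cre alleles. The deviations from the lineage means of same-numbered libraries correlated at -0.011, -0.004 and -0.011 for numbers 1, 2 and 3, so they did not pair the libraries.

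The 10 genes and the lists were chosen with earlier results of these data known. Other genes named are list genes above 5 TPM in all 3 libraries of a lineage, genes whose exons overlap those of a chemokine gene, marker genes, and the 3 tested genes most like *Ackr1*, *Cxcl12* and *Ccl2*. Some results that this rule takes are not reported here. The remaining names of low or undetected genes were chosen after their values were seen. Gene positions are those of GENCODE M21 (GRCm38, the same build as mm10). Promoter sequences are from RefSeq on GRCm38.p6. Python 3.11.15, pandas 2.3.3 and matplotlib 3.10.9 were used.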

Additional observations from a re-analysis of the deposited data

How the results depend on the processing

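No alternative brought any of the 10 chemokine genes past the adjusted threshold of limma. Tried were a replicate block, library weights, eBayes without a trend, quantile and median-of-ratios scaling, 3 other filters, pseudocounts of 0.1 and 5, and each library left out in turn. Of 157 values of the 10 genes, 148 kept their direction and 9 changed sign. The other filters, eBayes without a trend and the replicate block cannot alter the difference itself, so their direction was fixed in advance. The sign changes came when a library was left out and, for *Cxcl1*, also with library weights. With library weights the difference of *Cxcl1* was 0.6. With each library left out in turn it ran from -0.17 to 0.52 for *Cxcl12*, from -1.28 to 1.18 for *Cxcl1*, from -0.5 to 1.68 for *Cxcl14* and from -0.11 to 1.66 for *Ccl2*, and the cause was not tested. The adjusted p of *Ackr1* ran from 0.305 to 0.969 over its alternatives. Among all genes, 1 passed the threshold with a pseudocount of 5, and 0 passed with a replicate block and under the other settings. With a threshold of 10 TPM the filter for exclusive transcripts took 0 of the 10 genes, because CNC replicate 3 was at 5.25 TPM for *Ackr1*. Under the other settings it took 1. Except for median-of-ratios scaling, those settings only loosen the rule, so they could not lose *Ackr1*. Unknown depth limits every value of 0. At an average of 100 TPM or more, 10 of 1523 genes had a 0 in some library, as did 2038 of 7444 genes at an average of 10 TPM or more.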
